A study of Mus musculus with 12 samples.

Results

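The mitochondrial genome transcripts are the rows of the deposited expression table that lie on chromosome M, 11 of 55418 rows. All 11 were taken by chromosome name alone, a rule that uses no measured value, although earlier results of these data were known. Fragments were listed in 8 of the 11 rows, while the other 3 were listed at 0 in all 12 libraries. RNA was sequenced from Six2-expressing cells of mouse kidney at postnatal day 0, sorted by flow cytometry with the Cre-dependent R26R-tdTomato reporter. SMART-Seq cDNA amplification preceded library preparation. The sample titles give 4 groups, which are mutant high expression (2 libraries), control high expression (2 libraries), mutant low expression (4 libraries) and control low expression (4 libraries). All groups share the Six2-based isolation and the tdTomato reporter. What was high or low is not stated in the titles, the allele behind the word mutant is in no sample label, and Eed, a Polycomb group member, is named only in the series title. The tissue label reads fetal kidney, while the protocol gives postnatal day 0. No label ties the libraries to separate animals. The p-values thus reflect the spread among these libraries only, and that spread may be technical. The cell type label could not be checked against marker genes, because the identifiers in the table are not paired with gene names.

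The mitochondrial genome is a small circle that is transcribed from both strands into long precursors. These are cut, largely at the tRNAs that lie between the genes, into mRNAs, 2 ribosomal RNAs and tRNAs. Its 13 proteins are all subunits of the respiratory chain or of ATP synthase, so kidney cells need these transcripts for oxidative phosphorylation, which proximal tubule cells use heavily. The plus strand, in the orientation of the reference, carries 12 of the 13 protein genes. The gene mt-Nd6, a complex I subunit, is read from the minus strand, and most of the other minus-strand RNA is known to be short-lived.

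The rows do not follow single genes. They were named by their overlap with the 37 mitochondrial genes of GENCODE release M21, made for GRCm38, whereas the positions printed here are mm9 positions as deposited. Of the 11 row starts, 0 equalled the start of an annotated gene as deposited and 3 did so after adding 1, while 4 of the 11 row ends equalled a gene end. The starts are therefore probably counted from 0, and the names rest on this overlap. A row held more than 50% of the bases of 11 of the 13 protein genes on the same strand. The exceptions were mt-Co3 and mt-Nd3, so no row gives a value for these genes. Several of the other genes share a row with another gene, and the value of such a row is not that of either gene alone.

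On the plus strand, the row at chrM:69-852 covers 82.0% of mt-Rnr1, the 12S ribosomal RNA. The row at chrM:1148-3703 covers 96.5% of mt-Rnr2, the 16S ribosomal RNA, and 99.6% of mt-Nd1, a complex I subunit, with the leucine tRNA mt-Tl1 between them. The row at chrM:3848-4933 holds mt-Nd2, another complex I subunit, and the row at chrM:5326-6938 holds mt-Co1, the catalytic subunit of complex IV. The row at chrM:9875-11542 holds mt-Nd4l and mt-Nd4, both of complex I. The row at chrM:12405-15288 holds 63.6% of mt-Nd5, of complex I, and the whole of mt-Cytb, the cytochrome b of complex III. On the minus strand, the row at chrM:1093-2681 lies opposite the whole of mt-Rnr2. The row at chrM:11719-14070 holds mt-Nd6 on its own strand, over 22.1% of the row, and lies opposite mt-Nd5 over 77.6% of it. The 3 rows listed at 0 were chrM:7009-7699 on the plus strand (mt-Co2, of complex IV), chrM:7765-8607 on the plus strand (mt-Atp8 and mt-Atp6, of ATP synthase) and chrM:9202-9888 on the minus strand (opposite mt-Nd3). Since mt-Co2 and mt-Atp6 are used by every respiring cell, a value of 0 in all 12 libraries may be a failed estimate, and these rows are said only to be listed at 0.

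In 2 stretches rows of opposite strands lie over each other, with 1533 shared bases at the 16S ribosomal RNA and 1665 shared bases around mt-Nd5 and mt-Nd6. SMART-Seq libraries do not mark the strand by default, and no use of strand in counting is given in the sources used here, so the fragments of a row and of its opposite partner cannot be told apart. Sequences that lie inside both rows of a pair are shown to make the overlap visible. The ends of mt-Nd5 and mt-Nd6 share 14 bases, in capitals, each being the reverse complement of the other, and the last 60 bases of mt-Rnr2 are followed by the same stretch read on the opposite strand. All are written 5′ to 3′ from GENCODE M21 transcripts on GRCm38.
mt-Nd5 (plus strand), last 60 bases: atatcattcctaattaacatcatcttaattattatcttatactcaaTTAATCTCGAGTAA
mt-Nd6 (minus strand), last 60 bases: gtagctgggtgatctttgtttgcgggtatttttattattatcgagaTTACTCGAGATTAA
mt-Rnr2 (plus strand), last 60 bases: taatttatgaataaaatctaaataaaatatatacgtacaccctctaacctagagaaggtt
opposite strand of these 60 bases: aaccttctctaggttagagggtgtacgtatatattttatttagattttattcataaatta
The strands differ in base composition. The transcript of mt-Nd6 was 28.1% G and 5.97% C, whereas the 12 protein genes of the plus strand ranged from 5.88% to 16.1% G and from 22.1% to 30.0% C.

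Library totals ran from 4549011 to 12365078 fragments, with 9307989 and 7779040 in mutant high and 6249263 and 4549011 in control high cells. Each library held 53072 to 467368 fragments on chromosome M, so counting error was small beside the differences between libraries. The widest 95% Wilson interval on a share of the library total was 10.25% to 10.30%. Intervals cover counting error only, because amplified fragments are not independent molecules.

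The mitochondrial share of the library, summed over the rows as listed, was far higher in control high cells than in any other group. The genes mt-Co2, mt-Atp8, mt-Atp6, mt-Co3 and mt-Nd3 added nothing to this share or to the chromosome M total, as no fragments were listed for them. Chromosome M took 1.17% and 0.795% of the fragments in mutant high cells, against 4.51% and 10.3% in control high cells. It took 1.29%, 1.68%, 0.539% and 0.494% in mutant low cells, and 1.78%, 1.96%, 1.17% and 0.767% in control low cells (replicates 1 to 4 each). Every control high library lay above all other 10 libraries, and mutant high, mutant low and control low libraries overlapped one another. Mean shares were 0.984% ± 0.268 in mutant high and 7.39% ± 4.08 in control high cells (SD, n = 2 each), and 1.002% ± 0.582 in mutant low and 1.42% ± 0.553 in control low cells (SD, n = 4 each). The mutant high mean was 0.133 times the control high mean, a difference of -6.41 percentage points. The mutant low mean was 0.705 times the control low mean, a difference of -0.42 points that was smaller than either SD. Control high cells had 5.20 times the mean share of control low cells. The mutant high mean was 0.982 times the mutant low mean. In RNA from sorted populations, fewer cells of a type and less RNA per cell cannot be told apart. No other chromosome varied as much. The highest library share was 20.8 times the lowest for chromosome M, compared with 1.10 to 1.41 times for the 20 other chromosomes examined, Y not among them. Chromosome M holds 11 rows and each other chromosome sums many more loci, so these ratios compare unlike sets.

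**Figure D1:**
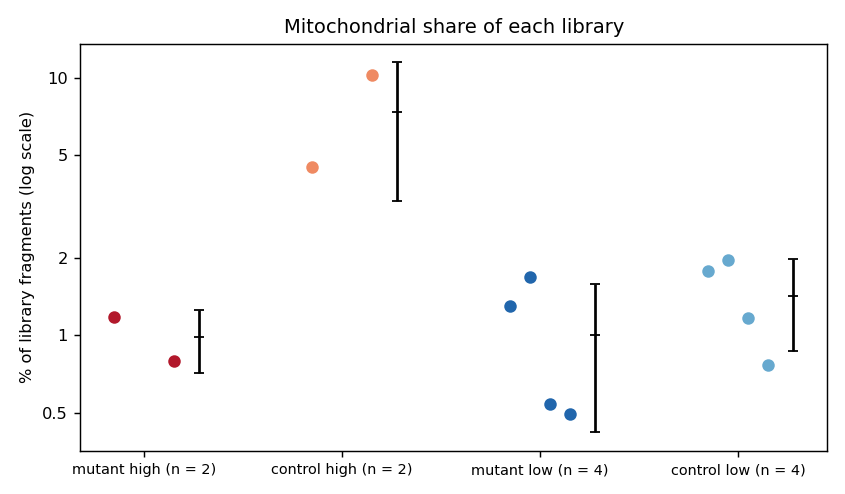
Percent of each library's fragments on chromosome M (vertical axis, log scale), by group, with mutant high and control high cells left of mutant low and control low cells; points are libraries and bars the mean ± SD. The 2 control high libraries, at 4.51% and 10.3%, lie above the other 10, which run from 0.494% to 1.96%.

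The 2 control high libraries differed from each other. Replicate 2 had 2.28 times the chromosome M share of replicate 1, whereas the 2 mutant high libraries differed by a ratio of 1.48. Ratios between the highest and lowest library were larger among low cells, 3.40 in mutant low and 2.56 in control low cells. The difference between the control high libraries was unequal along the genome. In CPM, the fragments of a row per 1000000 fragments of the library total, replicate 2 exceeded replicate 1 by a ratio of 3.41 (exact 95% counting interval 3.21 to 3.64) at the mt-Nd4 row, 3.20 (3.05 to 3.37) at the mt-Nd2 row and 3.14 (3.12 to 3.17) at the minus-strand row opposite mt-Rnr2. The plus-strand row of mt-Rnr2 and mt-Nd1 had the smallest ratio, 1.60 (1.58 to 1.61). The other 4 rows ranged from 1.87 at mt-Rnr1 to 2.18 at the mt-Nd6 row. Replicate 2 was also the smaller library, with 4549011 fragments against 6249263. Apart from chromosome M, the 100 most abundant loci took 18.8% of replicate 2 and 19.1% of replicate 1, within the 16.8% to 19.9% of the other 10 libraries. The 8 nuclear loci most abundant in each library, which can differ between libraries, took 5.99% of replicate 2 and 5.24% of replicate 1. These values were above the 3.43% to 4.504% of the other 10 libraries, and the part of this in the mitochondrial differences was not tested.

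The stretch of mt-Rnr2 and mt-Nd1, here called the ribosomal RNA stretch, carried most of the mitochondrial fragments. By length its plus-strand row is 59.8% mt-Rnr2 and 37.3% mt-Nd1, and the fragments of these genes are not separated. At the plus-strand row of mt-Rnr2 and mt-Nd1 (chrM:1148-3703), libraries held 4695 and 3450 CPM in mutant high cells, against 17340 and 27662 in control high cells. The same row held 4478, 5055, 2578 and 2126 CPM in mutant low cells, against 5868, 6004, 4117 and 3077 in control low cells. Both control high libraries stood above all other libraries here, and the ranges of the other 3 groups overlapped. At the minus-strand row opposite mt-Rnr2 (chrM:1093-2681), libraries held 3829 and 1782 CPM in mutant high cells, against 15918 and 50008 in control high cells. In mutant low cells it held 5470, 8433, 1854 and 1500, against 7972, 9481, 4170 and 2632 in control low cells. The highest low-cell libraries thus came nearer to control high replicate 1 at this row than at its plus-strand partner. The 12S row of mt-Rnr1 (chrM:69-852), a ribosomal RNA of the small subunit, was much lower and spread more widely. It held 114 and 38.1 CPM in mutant high cells, against 552 and 1033 in control high cells. In mutant low cells it held 261, 281, 11.6 and 40.8, against 498, 289.9, 24.6 and 41.6 in control low cells. Replicate 1 of control low cells came close to control high replicate 1, while replicates 3 and 4 of both low groups were at most 41.6.

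Among the rows of messenger RNAs, control high cells had the highest level in each, while the order of the other 3 groups varied. At the mt-Co1 row (chrM:5326-6938), libraries held 713 and 701 CPM in mutant high cells, against 1899 and 4031 in control high cells. The mutant high pair was close together here, and the control high libraries stood above every other library. In mutant low cells this row held 604, 585, 80.1 and 176, against 899, 735, 291 and 239 in control low cells. At the row of mt-Nd5 and mt-Cytb (chrM:12405-15288), libraries held 1294 and 1162 CPM in mutant high cells, against 4847 and 9555 in control high cells. It held 1074, 1149.5, 435 and 577 in mutant low cells, against 1235, 1541, 1456 and 844 in control low cells. Both mutant high libraries were above all 4 mutant low libraries at these 2 rows, narrowly so at the second. The complex I rows of mt-Nd2 and mt-Nd4 were the least abundant. At the mt-Nd2 row (chrM:3848-4933), libraries held 84.7 and 50.4 CPM in mutant high cells, against 352 and 1126 in control high cells. Mutant low libraries held 27.7 to 89.9 and control low libraries 39.1 to 182, so the mutant high values fell inside both ranges. At the mt-Nd4 row (chrM:9875-11542), libraries held 84.2 and 58.2 in mutant high cells, against 221 and 755 in control high cells. Mutant low libraries held 17.9 to 58.2 and control low libraries 22.2 to 111. The minus-strand row of mt-Nd6 (chrM:11719-14070) lies mostly opposite mt-Nd5. Libraries held 926 and 704 CPM at this row in mutant high cells, against 3930 and 8571 in control high cells. In mutant low cells they held 931, 1150, 384 and 477, against 1074, 1397, 1559 and 775 in control low cells. For this row control low replicate 3 was the highest of its group, although its chromosome M share was below those of replicates 1 and 2.

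**Figure D2:**
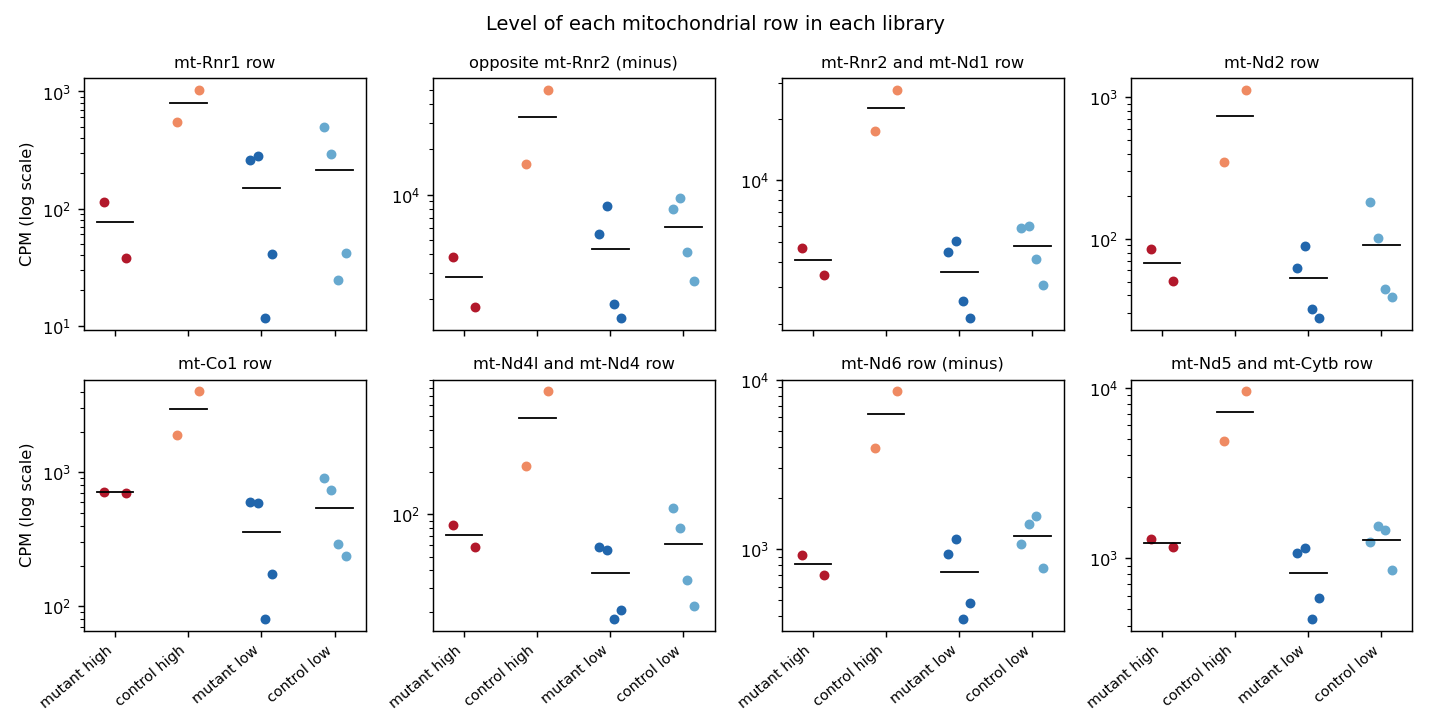
CPM, the fragments per 1000000 of the library total (log scale), for the 8 mitochondrial rows with fragments, a panel each, by group; points are libraries and black lines group means. In every panel both control high libraries lie above both mutant high libraries and above all 4 control low libraries.

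Per kilobase of row, the order of levels was the same in control high, mutant low and control low cells. In control high cells the minus-strand row opposite mt-Rnr2 averaged 20757 ± 15179 CPM per kilobase and the plus-strand row of mt-Rnr2 and mt-Nd1 8807 ± 2857 (SD, n = 2). The mt-Nd6 row followed with 2659 ± 1396, then the mt-Nd5 and mt-Cytb row with 2498 ± 1155 and the mt-Co1 row with 1839 ± 935. Most of the mt-Nd6 row lies opposite mt-Nd5, and fragments of opposite rows cannot be told apart. The places of the minus-strand rows are therefore not levels of mt-Nd6 or of RNA opposite mt-Rnr2. The mt-Rnr1 row stood at 1012 ± 434, the mt-Nd2 row at 681 ± 505 and the mt-Nd4 row at 293 ± 227. Neighbours in this order differed by less than the larger SD of the pair, apart from the step between the mt-Rnr2 and mt-Nd1 row and the mt-Nd6 row. In mutant high cells the mt-Co1 row came directly after these 2 rows, at 438 ± 5.21, ahead of the mt-Nd5 and mt-Cytb row at 426 ± 32.4 and the mt-Nd6 row at 347 ± 66.6 (SD, n = 2).

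As a share of chromosome M fragments, which does not depend on how libraries are scaled, the minus-strand row opposite mt-Rnr2 took 32.6% and 22.4% in mutant high cells, against 35.3% and 48.7% in control high cells. In mutant low cells it took 42.3%, 50.2%, 34.4% and 30.3%, against 44.7%, 48.3%, 35.7% and 34.3% in control low cells. Its share was thus lower in both mutant high libraries than in both control high libraries, and the low groups overlapped. The mt-Co1 row took 6.07% and 8.82% in mutant high cells, against 4.21% and 3.92% in control high cells. It took 4.67%, 3.48%, 1.48% and 3.55% in mutant low cells, against 5.04%, 3.75%, 2.49% and 3.11% in control low cells. Both mutant high libraries stood above the other 10 in the share of this row. The 2 libraries most alike in their make-up were replicate 2 of mutant low and replicate 2 of control low cells, with 2.11% of fragments placed differently. The least alike were mutant high replicate 2 and mutant low replicate 2, with 29.0%. The minus-strand row opposite mt-Rnr2 took 22.4% and 50.2% in these 2 libraries. Its fragments cannot be told apart from those of its plus-strand partner, so its share and these likenesses depend on an uncertain split. These shares were compared without a test.

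**Figure D3:**
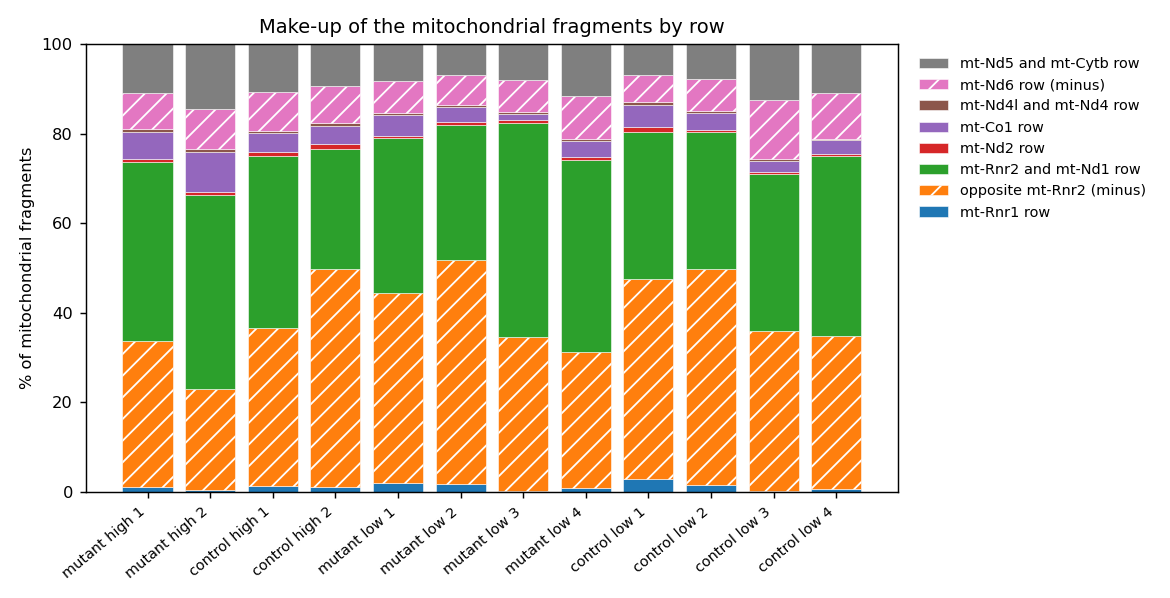
Percent of each library's chromosome M fragments in each of the 8 rows, as stacked bars, 1 bar a library, ordered by group; hatched parts are minus-strand rows. The minus-strand row opposite mt-Rnr2 ranges from 22.4% in mutant high replicate 2 to 50.2% in mutant low replicate 2.

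Within the ribosomal RNA stretch (chrM:1093-3703), the minus-strand row took 44.9% and 34.1% of the fragments of both strands in mutant high cells, against 47.9% and 64.4% in control high cells. It took 55.0%, 62.5%, 41.8% and 41.4% in mutant low cells, against 57.6%, 61.2%, 50.3% and 46.1% in control low cells. In the stretch around mt-Nd5, mt-Nd6 and mt-Cytb (chrM:11719-15288) the split was steadier, at 41.7% and 37.7% in mutant high cells, against 44.8% and 47.3% in control high cells. In this stretch the 4 mutant low libraries lay at 45.3% or above, and the control low libraries ran up to 51.7%. Mutant high cells therefore had the lowest minus-strand shares at this stretch, below all other 10 libraries. Since the fragments of opposite rows cannot be told apart, the sum of both strands is the firmer level. At the ribosomal stretch that sum was 8523 and 5232 CPM in mutant high cells, against 33258 and 77669 in control high cells.

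**Figure D4:**
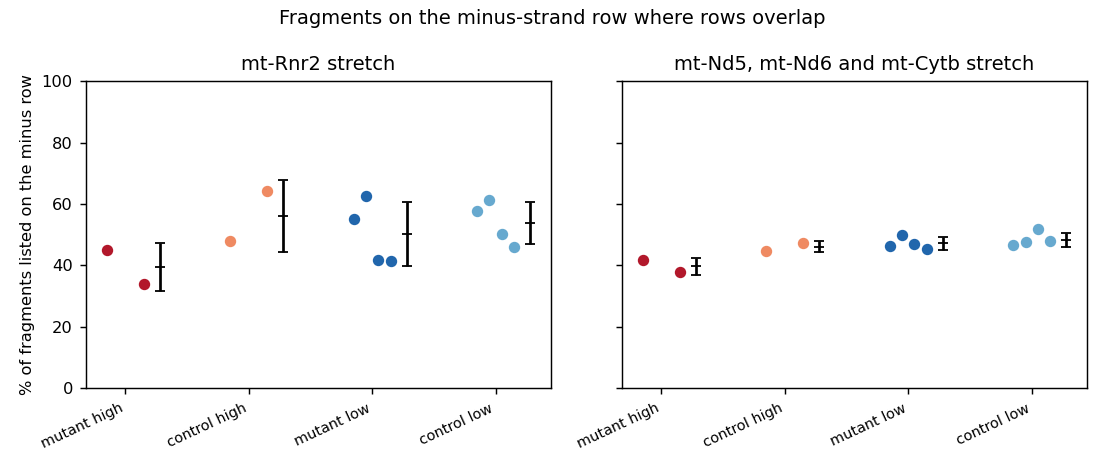
Percent of fragments assigned to the minus-strand row in the 2 stretches where rows of opposite strands overlap, by group; points are libraries and bars the mean ± SD. At the stretch of mt-Nd5, mt-Nd6 and mt-Cytb the mutant high libraries, at 41.7% and 37.7%, lie below the other 10.

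The first comparison asked whether mutant and control cells of the high population differ. By edgeR's quasi-likelihood test with Benjamini-Hochberg adjustment over 13749 loci, 7 of the 8 rows fell in mutant high cells and 0 rose, against a background of 11.2% of all loci tested lower and 27.5% changed in either direction. The 8 rows are not independent of each other, as they come from shared precursors and some overlap on opposite strands. Counts of rows, here and below, are therefore not counts of separate results. The median log2 fold change was -3.34 over the 8 rows and 0.08 over all loci tested. Of all loci tested, 0.371% (row opposite mt-Rnr2) to 2.89% (mt-Co1 row) had a lower log2 fold change than a mitochondrial row. The mt-Nd5 and mt-Cytb row fell by 3.03 (SE 0.45, edgeR adjusted p = 0.000385) and the mt-Nd6 row had -3.42 (SE 0.51, edgeR adjusted p = 0.000387). The row of mt-Rnr2 and mt-Nd1 fell by 2.95 (SE 0.45, edgeR adjusted p = 0.000463), and its minus-strand partner fell by 4.05 (SE 0.89, edgeR adjusted p = 0.00554). The mt-Nd2 row fell by 3.94 (SE 0.85, edgeR adjusted p = 0.00582), the mt-Nd4 row fell by 3.26 (SE 0.84, edgeR adjusted p = 0.0149) and the mt-Co1 row fell by 2.55 (SE 0.87, edgeR adjusted p = 0.0482). The mt-Rnr1 row had a log2 fold change of -3.88 with an SE of 1.77 and did not pass the test (edgeR adjusted p = 0.139). It was called lower by DESeq2 (adjusted p = 0.0369) and in edgeR's fit of only the 2 high groups (adjusted p = 0.00196). The same held with description numbers above 7 as a covariate (edgeR adjusted p = 0.0138). It also held without replicates 3 and 4 of both low groups (edgeR adjusted p = 0.00102). Each of these settings called 8 of 8 rows. With both strands summed, the ribosomal stretch fell by 3.51 (SE 0.66, edgeR adjusted p = 0.00163) and the stretch of mt-Nd5, mt-Nd6 and mt-Cytb fell by 3.21 (SE 0.48, edgeR adjusted p = 0.000418). Without mutant high replicate 2 the test called 3 of the 8 rows, and the mt-Nd4 call was also lost without mutant high replicate 1 or control high replicate 2 (edgeR adjusted p = 0.0709 and 0.107). The mt-Co1 call was lost when any of the 4 high libraries, replicate 1, 2 or 4 of mutant low or replicate 2 of control low cells was left out (edgeR adjusted p = 0.05002 to 0.219). Library totals alone, no filter on low counts and each transcript row as a feature also lost the mt-Co1 call (edgeR adjusted p = 0.115 to 0.123). The rows of mt-Rnr2 and mt-Nd1, of mt-Nd6 and of mt-Nd5 and mt-Cytb were called under every setting tried.

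In the low population the corresponding comparison called 0 of the 8 rows by edgeR, with 8.03% of all loci tested called in either direction. All 8 log2 fold changes were below 0, from -0.81 at the mt-Nd2 row to -0.43 at the mt-Rnr2 and mt-Nd1 row, with a median of -0.65 against -0.06 over all loci tested. The mt-Nd6 row had -0.73 (SE 0.33, edgeR adjusted p = 0.228) and the mt-Nd5 and mt-Cytb row -0.67 (SE 0.30, edgeR adjusted p = 0.216), and these 2 rows had an unadjusted p under 0.05. DESeq2 and limma-voom also called 0. All 8 rows had overlapping ranges in CPM.

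Low-cell libraries differed from each other along a number in the sample descriptions, which the labels do not explain. Replicates 1 and 2 of each low group have numbers up to 7 and replicates 3 and 4 numbers above 7. The chromosome M share averaged 1.49% for numbers up to 7 and 0.517% above 7 in mutant low cells, and 1.87% and 0.968% in control low cells. The mt-Rnr1 row differed most, by a ratio of 10.3 in mutant low and 11.9 in control low cells, and the mt-Nd6 row in control low cells least, by 1.06. Among libraries up to 7, the mutant low to control low log2 fold changes ranged from -0.94 to -0.29 and 0 rows were called by edgeR. Above 7 they ranged from -1.29 to -0.25 and the mt-Nd6 row was called lower (-1.29, edgeR adjusted p = 0.0336). Control high replicate 2, the library with the highest share, is the only high library with a number above 7. Without it, both mutant high libraries were still below the remaining control high library in all 8 rows. The number was also fitted as a block, and numbers above 7 as a covariate. Whether it has a part in the differences between groups was not tested beyond these values and fits.

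High and low populations were compared within each genotype. In control cells, 7 of the 8 rows rose in high cells by edgeR, where 25.3% of all loci tested were higher and 52.3% changed in either direction. The median log2 fold change was 2.90 over the 8 rows and -0.13 over all loci tested. Of all loci tested, 87.8% (mt-Rnr1 row) to 92.9% (mt-Nd2 row) had a lower log2 fold change than a mitochondrial row. The mt-Nd5 and mt-Cytb row rose by 2.96 (SE 0.35, edgeR adjusted p = 7.15e-06) and the row of mt-Rnr2 and mt-Nd1 by 2.69 (SE 0.35, edgeR adjusted p = 1.79e-05). The mt-Nd2 row had the largest rise, 3.47 (SE 0.64, edgeR adjusted p = 0.000784), with the mt-Nd4 row at 3.44 (SE 0.65, edgeR adjusted p = 0.00102). The mt-Co1 row rose by 2.91, the mt-Nd6 row by 2.83 and the minus-strand row opposite mt-Rnr2 by 2.90, with edgeR adjusted p of 0.00400, 2.89e-05 and 0.00265. The last of these calls was lost without control high replicate 2 (log2 fold change 1.86, edgeR adjusted p = 0.0709). The mt-Rnr1 row did not pass (2.35, SE 1.31, edgeR adjusted p = 0.164). It was called higher by limma-voom (adjusted p = 0.0440) and with description numbers above 7 as a covariate (edgeR adjusted p = 0.0104). The same held without replicates 3 and 4 of both low groups (edgeR adjusted p = 0.0363). Each of these settings called 8 of 8 rows. High and low libraries share description numbers, 5 and 7 in mutant cells and 6 and 8 in control cells, and no label says that a number marks an animal. With that number as a block, edgeR called 4 of the 8 rows in control cells, and the mt-Nd2 row (adjusted p = 0.0535), the mt-Nd4 row (adjusted p = 0.0526) and the minus-strand row opposite mt-Rnr2 (adjusted p = 0.0811) were not called. In mutant cells, edgeR called 0 of the 8 rows between high and low cells, and 0 had an unadjusted p under 0.05, while 32.2% of all loci tested were called. The log2 fold changes lay on both sides of 0, from -0.94 at the mt-Rnr1 row to 0.999 at the mt-Co1 row. DESeq2 and limma-voom also called 0.

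**Figure D5:**
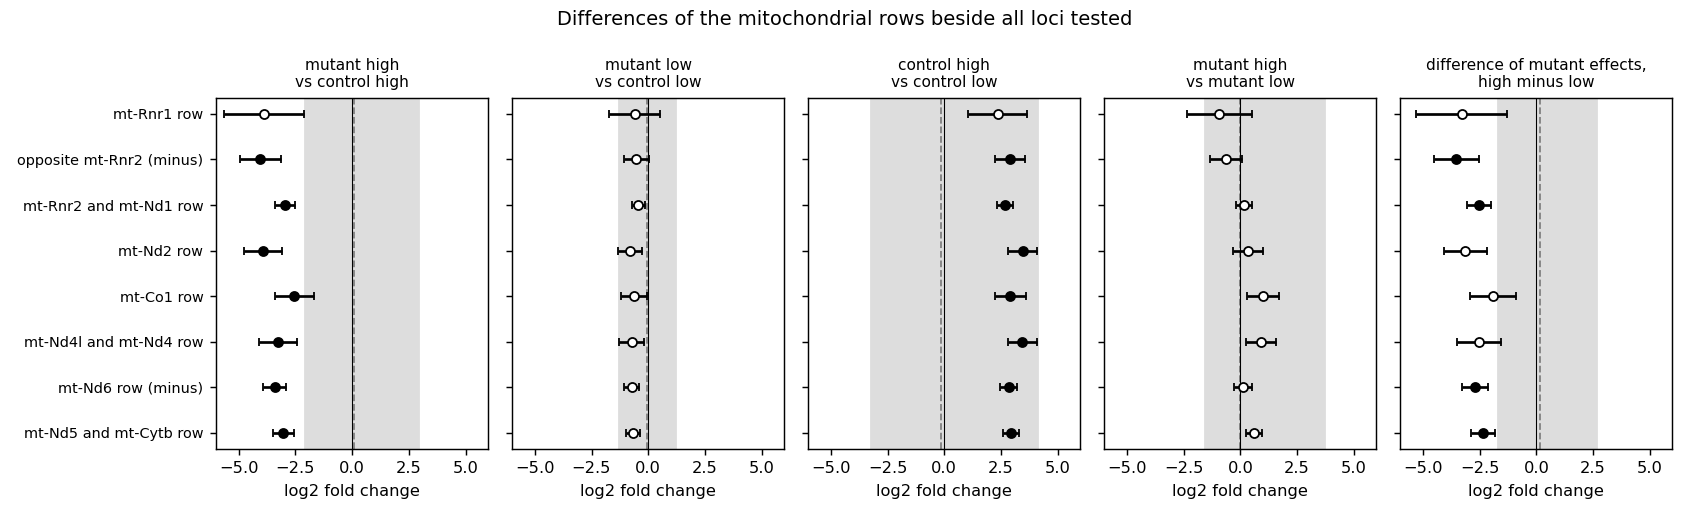
Log2 fold change with its SE (horizontal axis) of the 8 mitochondrial rows in each comparison; filled symbols have an edgeR adjusted p under 0.05, the grey band spans the 5th to 95th percentile of all loci tested and the dashed line their median. In the high population 7 of 8 rows are filled and below 0, and in the low population 0 of 8.

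The difference between the mutant effects in the high and low populations was itself tested. By edgeR, 4 of the 8 rows were lower in this difference, against 3.05% of all loci tested lower and 10.3% in either direction, and 0 were higher. Its median was -2.62 over the 8 rows and 0.15 over all loci tested. The rows called were those of mt-Rnr2 and mt-Nd1 (-2.52, SE 0.53, edgeR adjusted p = 0.00834), mt-Nd6 (-2.70, SE 0.58, edgeR adjusted p = 0.01004), mt-Nd5 and mt-Cytb (-2.36, SE 0.52, edgeR adjusted p = 0.0113) and the minus-strand row opposite mt-Rnr2 (-3.52, SE 1.005, edgeR adjusted p = 0.0437). The mt-Nd2, mt-Nd4, mt-Co1 and mt-Rnr1 rows had differences of -3.13, -2.54, -1.91 and -3.29 that did not pass. The count was 0 without mutant high replicate 2 and 0 without control high replicate 2 (edgeR adjusted p = 0.0520 to 0.210 for the 4 rows). The minus-strand row opposite mt-Rnr2 also lost its call without mutant high replicate 1, mutant low replicate 1 or 2, or control low replicate 1, 3 or 4 (edgeR adjusted p = 0.0504 to 0.0882). These comparisons share libraries, and the 2 control high libraries enter the high-population comparison, the control comparison and the difference. The TMM scaling factors of the control high libraries, 0.7698 and 0.776, were also the lowest of the 12, the others running from 0.915 to 1.16. Scaled by library totals alone, the median of all loci tested moved to 0.56 in mutant high against control high cells and the mitochondrial median to -2.86, with 6 of 8 rows called.

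The loci whose level over the 12 libraries most resembled the chromosome M share were sought among 10022 nuclear loci of at least 5 CPM on average. The nearest was at chrX:20192451-20194690 on the minus strand, with Pearson's r of 0.984 between log2(CPM + 1) and the log2 share. It averaged 3.89 CPM in mutant high and 20.6 CPM in control high cells, and 4.16 CPM in mutant low and 5.23 CPM in control low cells. The next 4 were at chrX:71024301-71032236 (minus strand, r = 0.965), chr2:9977658-10002137 (minus strand, r = 0.961), chr4:116358203-116372605 (plus strand, r = 0.956) and chr7:26404449-26410569 (plus strand, r = 0.956). Each of the 5 had its highest mean in control high cells. In all, 56 loci reached an r of 0.9. These coefficients describe 12 libraries that share 4 groups. How far they rest on the distance of the control high libraries from the others was not tested.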

How the data were processed

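Values are the authors' estimated counts, raw fragments assigned to each transcript and deposited without normalization, 1 column for each of 12 libraries. Bowtie2, HTSeq, DESeq2 and mm9 are named without roles or versions, per the submitters' processing notes. The name under which the values were deposited also holds CuffDiff2, again without a role. All 132 values on chromosome M were whole within 0.01. Of the rows, 303 without a position held 0 fragments.

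Rows overlapping on the same strand were summed to 26699 loci and rounded, which left the 11 mitochondrial rows as they were. Shares use the sum of all rows. Loci were tested with edgeR 4.0.16 in R 4.3.3 (quasi-likelihood F test, TMM, filterByExpr, robust dispersions, 4 groups in 1 fit, two-sided, Benjamini-Hochberg threshold 0.05), and 13749 passed the filter, 8 of them mitochondrial. The fit was also run on simulated data, and the outcome is not used here. DESeq2 1.42.0, limma-voom (limma 3.58.1), other scalings and filters, replicate blocks and leaving out libraries were alternatives. Settings added after seeing the data were merging rows over both strands and description numbers above 7 as a covariate or split. Leaving out replicates 3 and 4 of both low groups was also added then.

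All rows on chromosome M are named, with the 5 nuclear loci most like them. Members and lists were chosen with earlier results of these data known. Identifiers are not paired with symbols, so lists of nuclear genes, cell type markers, Six2 and Eed were not analysed here. No label says that a shared replicate or description number marks an animal, so numbers entered as a block only as an alternative. Genome sequence by mm9 position and mitochondrial protein sequences were not used here.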

Additional observations from a re-analysis of the deposited data

Results flagged for a closer look

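The mutant effect differed between the high and low populations, by edgeR's test of the difference, at 4 rows. The differences, high minus low on the log2 scale, were -3.52 at the minus-strand row opposite mt-Rnr2, -2.52 at the row of mt-Rnr2 and mt-Nd1, -2.70 at the mt-Nd6 row and -2.36 at the row of mt-Nd5 and mt-Cytb. Each of these 4 calls was lost without mutant high replicate 2 and without control high replicate 2, which left 0 rows called.

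In mutant low cells, replicate 4 stood apart from the other replicates in the percent of its chromosome M fragments that fell on the mt-Nd6 row, at 9.65 against 7.20, 6.85 and 7.13. Of 36 groups of values examined for such a gap this was the 1 found, and chance gives about 1 in 20.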

How the results depend on the processing

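No row called in edgeR's fit changed direction under any setting run. In mutant high against control high cells the count of rows called was 7 and ranged from 3 to 7 over leaving out each library. It was 8 by DESeq2, in the fit of only these groups and with the title number as a block. It was also 8 with description numbers above 7 as a covariate and without low replicates 3 and 4. It was 6 with library totals alone, with no filter on low counts and with each transcript row as a feature. With rows merged over both strands it was 5 of 6. In control high against control low cells it was 7 and ranged from 6 to 7. It was 8 by limma-voom, with the title block, with the covariate and without low replicates 3 and 4, and 4 with the description number as a replicate block. In mutant low against control low cells it was 0, also with any 1 library left out, and it was 1 among libraries numbered above 7. In mutant high against mutant low cells it was 0, also with any 1 library left out, and 1, the mt-Rnr1 row, with the title number as a block and without replicates 3 and 4 of both low groups. The difference of mutant effects called 4 rows, and 0 to 5 over leaving out each library. It called 2 with each transcript row as a feature and 2 of 6 with rows merged over both strands. It called 8 with the title number as a replicate block and 7 with description numbers above 7 as a covariate. Deviations of libraries with the same title number correlated at 0.103, 0.339, 0.0848 and 0.525 between mutant low and control low cells. The 2 high pairs both gave -0.070, which counts once, since 2 libraries deviate by opposite amounts from their mean. Deviations of libraries with the same description number correlated at 0.226 and 0.140 in mutant and at -0.060 and -0.085 in control cells. Neither number gave a correlation above 0.1 in every pair.

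Differences in mean share ranged over leaving out each library from -9.29 to -3.52 points (mutant high minus control high), 3.09 to 8.85 (control high minus control low), -0.207 to 0.208 (mutant high minus mutant low) and -0.645 to -0.238 (mutant low minus control low).

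Values that changed sign were uncalled, and the cause was not tested. The mt-Rnr1 row in mutant low against control low cells ranged from -1.12 to 0.27 over leaving out each library, above 0 without control low replicate 1. The others were in mutant high against mutant low cells. Over leaving out each library, the row of mt-Rnr2 and mt-Nd1 ranged from -0.058 to 0.36, the mt-Nd2 row from -0.075 to 0.69 and the mt-Nd6 row from -0.067 to 0.41. The first had -0.13 and -0.17 with the title and description replicate blocks, -0.016 with the covariate and -0.16 without low replicates 3 and 4. Under the same settings the mt-Nd2 row had -0.25, -0.12, -0.0050 and -0.11. The mt-Nd6 row had -0.036 and -0.29 with the blocks and -0.29 without low replicates 3 and 4.

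With 2 high libraries per genotype, their spread rests largely on that of the low groups.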
